A study of Homo sapiens with 20 samples.

Results

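The genes described here are 47 genes of the hypoxia response, of blood vessel growth and of glycolysis, taken by symbol from an RNA-seq count table of 54261 features. All 47 were found, and 45 had enough reads to be tested among 15629 genes. The samples were TPC-1 cells, an established line from a human papillary thyroid carcinoma, kept for 48 h either untreated (control, 4 libraries) or together with PMN-MDSCs, polymorphonuclear myeloid-derived suppressor cells, which are immature neutrophil-like cells that restrain T cells (coculture, 6 libraries). The same 2 groups, with the same numbers of libraries, were profiled by miRNA-seq. No genetic change or further agent is named for either group. How the 2 cell types were joined, where the PMN-MDSCs came from and whether they were removed before RNA was taken is not stated. The labels also do not say that each library was its own culture. The p-values then reflect only how far these libraries differ, which may be technical.

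When oxygen falls, prolyl hydroxylases of the EGLN family stop marking HIF alpha subunits for destruction by VHL, and HIF binds short DNA elements with the core ACGTG or GCGTG beside its target genes. Those targets move glucose into the cell, speed glycolysis, keep pyruvate out of mitochondria, export acid and lactate, modify collagen and call in blood vessels. In tumor cells, including thyroid cancer cells, many glycolysis genes run at a high level without low oxygen.

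RNA-seq libraries held 40237801 to 48197608 counts. Levels are given in CPM, the read count scaled by the TMM-adjusted library total (TMM is edgeR's correction for composition). Coculture libraries 1 and 2 stood apart from the other 8 over all genes, at -66.1 and -60.6 on a first principal component with 39.3% of the variance, where the others lay between 0.908 and 31.8. Levels are therefore given for coculture 1 and 2 beside coculture 3 to 6 for most genes, with no test of that split, since it was seen in the same values. PAX8, the thyroid transcription factor that TPC-1 cells keep, ran from 496 to 769 CPM over the 10 libraries, and KRT8 and KRT18, epithelial keratins, were at 240.2 ± 28.6 and 350 ± 43.9 CPM in the controls (SD, n = 4). PAX8 was highest (769 and 749 CPM) and KRT18 lowest (281 and 292 CPM) in coculture 1 and 2. The thyroid transcription factor gene NKX2-1 had no count in the controls. These genes belong to a list of 14 thyroid and epithelial markers, of which 8 were tested and 0 called. Coculture 1 and 2 lay above the other 8 libraries for 4 of the 8 and below for 1, against 22.4% and 22.3% of all genes. The summed level of 20 marker genes of myeloid cells and neutrophils was 27.9 to 56.3 CPM in the 6 coculture libraries and 2.16 to 2.62 CPM in the controls. Of these 20 markers, 11 had enough reads to be tested and all 11 were called higher in coculture, against 1.14% of all tested genes. CD53, TYROBP and CD52 had no count in the controls. They could be tested only through the coculture libraries, so their direction was fixed in advance. Among the untested markers, 4 neutrophil genes had no count in any library. These were FCGR3B, CXCR1 and CXCR2, which mark mature neutrophils, and ELANE, which is transcribed in their precursors. In these bulk samples, fewer cells of a type and less RNA per cell cannot be told apart. The markers stood at 49.3 and 27.9 CPM in coculture 1 and 2 and at 40.3 to 56.3 CPM in coculture 3 to 6.

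Across the coculture and control groups, none of the 45 tested genes passed the threshold, while within the coculture group 29 of them were higher in libraries 1 and 2 than in every other library. The edgeR quasi-likelihood test, adjusted by Benjamini-Hochberg over all 15629 genes, called 0 of 45 higher and 0 lower at 0.05, where 1.32% of all tested genes were called. DESeq2 and limma-voom also called 0. At an unadjusted p under 0.05 there were 5 of 45 genes (11.1%), all higher, against 9.66% of all tested genes, so the share of these genes lay near that of the whole table. The median log2 fold change of coculture minus control was 0.16, against 0.01 over all tested genes. The fold change was positive for 36 of 45 genes, against 8081 of all 15629. Without coculture 1 and 2 the median was -0.02, against -0.01 over all tested genes. By mean log2 CPM, 21 of 45 genes were higher in coculture 3 to 6 than in the controls.

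The split inside the coculture group was large. Both of coculture 1 and 2 lay above the other 8 libraries for 29 of 45 genes (64.4%), where 22.4% of all tested genes did so, and below them for 1 gene, FGF2, where 22.3% of all did so. At least 2-fold higher mean levels than the controls, on the log2 CPM scale, were found in coculture 1 and 2 for 14 of 45 genes (31.1%), against 7.49% of all tested genes. In coculture 3 to 6 it was 0 of 45, against 281 of all 15629 tested genes, so these genes lay near the whole table there. In that set 36 of 45 lay within 0.2 log2 units of the controls, a count that was not made for all genes. The median difference from the controls was 0.52 log2 units in coculture 1 and 2 and -0.01 in coculture 3 to 6. With coculture 1 and 2 left out, edgeR called 0 of 45 higher, where 1.37% of the 15309 genes tested in that fit were, and 1 lower (STC2), where 0.732% were (2.1% in both directions).

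**Figure D1:**
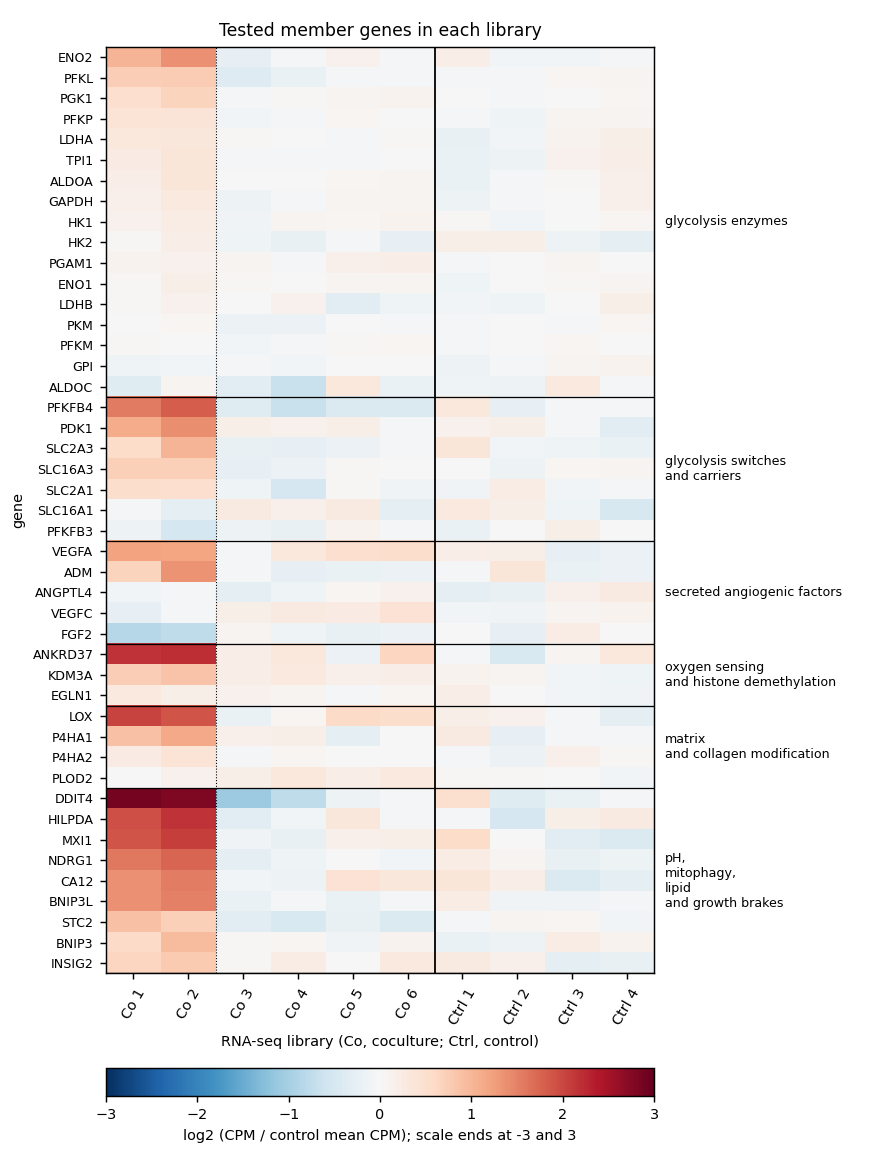
Log2 ratio of the CPM of each tested gene to its mean over the controls (color scale), with genes in rows by role and RNA-seq libraries in columns. Warm colors fill the columns of coculture 1 and 2 in all 9 rows of the lowest block, where the columns of coculture 3 to 6 are near the controls.

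DDIT4, which restrains growth signaling through mTORC1 under stress, differed most. It was at 1068 and 1019 CPM in coculture 1 and 2, at 68.8, 86.2, 132 and 143 CPM in coculture 3 to 6, and at 205, 114, 128 and 141 CPM in controls 1 to 4. Coculture 1 and 2 were thus far above all others, and coculture 3 to 6 overlapped the controls. The mean of coculture 1 and 2 was 7.10 times that of the controls, and its log2 difference from coculture 3 to 6 ranked 3 among the 15629 tested genes. Over all 6 coculture libraries the log2 fold change was 1.51 ± 0.79 (SE; edgeR adjusted p = 0.576). The deposited table places DDIT4 at chr10:72273919-72276039 (plus strand; build GRCh38.p10, as named in the submitters' processing notes).

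Promoter sequences show which letters of the HIF element lie next to these genes. RefSeq promoters (build GRCh38.p14, 250 bases before to 50 after a transcription start) were matched by symbol for 41 of 47 genes; VEGFA, NDRG1, BNIP3L, HILPDA, SLC2A3 and SLC16A1 had no entry. ACGTG, on either strand, was in at least 1 promoter of 25 of the 41 genes (61.0%), against 24.9% of all 27305 genes of that table. GCGTG was in 27 of 41 (65.9%), against 40.6%. Counted per promoter, the shares were 43.8% of 73 against 21.4% of 35116 for ACGTG and 47.9% against 36.5% for GCGTG. In that count a gene with several starts enters once for each start. Among genes above in coculture 1 and 2, 15 of 24 held ACGTG (62.5%), and among the other 17 it was 10 (58.8%). For GCGTG the counts were 18 of 24 (75%) and 9 of 17 (52.9%), and neither difference was tested. In the counts per gene, each gene was counted once over its alternative starts. ACGTG also lies inside the longer CACGTG that other factors use. A match describes letters, not binding. The genes were chosen by known role, HIF targets among them, so the excess over all genes may follow from that choice. It is not a result of these libraries, and the 27305 genes were not limited to those tested here. The 250 bases before the start are shown for DDIT4, ANKRD37 and ENO2, each above 2 times the controls in coculture 1 and 2, for PGK1 and LDHA, textbook HIF targets of glycolysis that were above by less, and for ANGPTL4, which holds the core and overlapped between all library sets. Each promoter shown holds ACGTG. PFKFB4, CA12 and ADM, at 3.24, 2.75 and 2.07 times the controls in coculture 1 and 2, had no ACGTG in their promoters and are not shown. Capitals mark ACGTG or its reverse complement.
DDIT4 promoter, chr10:72273674-72273923, plus strand: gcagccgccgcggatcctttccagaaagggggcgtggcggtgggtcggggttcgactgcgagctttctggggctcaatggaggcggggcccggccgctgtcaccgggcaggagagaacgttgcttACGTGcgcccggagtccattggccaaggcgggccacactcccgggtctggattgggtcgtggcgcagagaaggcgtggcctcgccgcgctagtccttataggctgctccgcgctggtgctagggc
ANKRD37 promoter, chr4:185396591-185396840, plus strand: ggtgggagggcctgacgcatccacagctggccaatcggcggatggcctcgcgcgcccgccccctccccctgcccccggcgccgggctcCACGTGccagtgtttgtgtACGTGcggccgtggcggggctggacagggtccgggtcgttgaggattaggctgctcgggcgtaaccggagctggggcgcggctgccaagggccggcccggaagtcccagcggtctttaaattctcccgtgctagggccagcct
ENO2 promoter, chr12:6914330-6914579, plus strand: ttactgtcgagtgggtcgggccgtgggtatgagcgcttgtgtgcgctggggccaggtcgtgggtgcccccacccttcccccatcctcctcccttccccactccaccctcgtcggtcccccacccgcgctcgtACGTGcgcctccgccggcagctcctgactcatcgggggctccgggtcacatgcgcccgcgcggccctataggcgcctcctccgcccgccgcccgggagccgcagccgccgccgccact
PGK1 promoter, chrX:78103998-78104247, plus strand: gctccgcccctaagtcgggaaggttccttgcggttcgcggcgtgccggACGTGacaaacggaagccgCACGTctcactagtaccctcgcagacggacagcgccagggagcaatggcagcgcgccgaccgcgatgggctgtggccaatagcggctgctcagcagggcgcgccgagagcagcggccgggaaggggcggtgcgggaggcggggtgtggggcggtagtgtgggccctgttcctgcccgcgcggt
LDHA promoter, chr11:18394313-18394562, plus strand: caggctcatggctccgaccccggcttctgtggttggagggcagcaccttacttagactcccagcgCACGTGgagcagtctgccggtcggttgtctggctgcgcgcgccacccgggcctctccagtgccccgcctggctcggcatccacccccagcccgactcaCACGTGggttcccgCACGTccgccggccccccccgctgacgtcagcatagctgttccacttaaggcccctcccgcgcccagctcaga
ANGPTL4 promoter, chr19:8363905-8364154, plus strand: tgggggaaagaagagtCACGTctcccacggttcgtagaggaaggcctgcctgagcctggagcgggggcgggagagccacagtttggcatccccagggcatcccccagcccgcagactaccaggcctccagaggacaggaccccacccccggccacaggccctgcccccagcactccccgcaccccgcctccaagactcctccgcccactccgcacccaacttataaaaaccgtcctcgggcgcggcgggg

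The DDIT4 core begins 125 bases before the start, and in ENO2 it begins 118 bases before it. ANKRD37 carries 1 palindromic copy and, 143 bases before the start, a further one. In ANGPTL4 the single copy begins 234 bases before the start.

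Of the genes of acid handling, mitochondrial turnover, lipid storage and growth restraint, with DDIT4 among them, all 9 tested were higher in coculture 1 and 2 than in every other library, as 22.4% of all tested genes were. None of the 9 was called for coculture against control. NDRG1, a stress-induced growth restrainer and a common marker of hypoxia, was at 621 and 694 CPM in coculture 1 and 2, 172, 189, 204 and 196 CPM in coculture 3 to 6, and 243, 220, 178 and 185 CPM in controls 1 to 4. Its log2 fold change over all coculture libraries was 0.74 ± 0.42 (SE; edgeR adjusted p = 0.606). Without coculture 1 and 2 it was -0.13 (adjusted p = 0.595).

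CA12, a membrane carbonic anhydrase that handles exported acid, was at 228 and 256 CPM in coculture 1 and 2, 82.6, 79.6, 118 and 111 in coculture 3 to 6, and 114, 100, 65.5 and 72.3 in controls 1 to 4. Coculture 3 to 6 overlapped the controls, and the overall log2 fold change was 0.73 ± 0.34 (SE; edgeR adjusted p = 0.521). CA9, its relative and one of the best known HIF targets, had only 5 counts over the 6 coculture libraries, 3 and 2 of them in libraries 1 and 2, and 1 count over the controls. The coculture to control ratio was 3.37 with a 95% exact counting interval of 0.377 to 159, so no difference was detectable at this depth. The TPC-1 cells thus expressed CA12 and hardly any CA9 in every library.

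HILPDA, a small protein that protects lipid droplets from breakdown, was at 15.1 and 17.8 CPM in coculture 1 and 2, 3.12 to 5.0 CPM in coculture 3 to 6 and 2.79 to 4.81 CPM in the controls. MXI1, which opposes MYC, was at 53.9 and 61.3 CPM in coculture 1 and 2, 12.3 to 16.3 CPM in coculture 3 to 6 and 10.6 to 21.2 CPM in the controls. For both genes the level in coculture 1 and 2 was about 4 times the controls (ratios of 4.15 and 3.98), and coculture 3 to 6 lay within or beside the control range. BNIP3L and BNIP3, receptors that send mitochondria to autophagy, differed by unequal amounts. BNIP3L was at 51.0 and 56.6 CPM in coculture 1 and 2 against 17.3 to 18.9 in coculture 3 to 6, and BNIP3 at 121 and 159 CPM against 76.1 to 88.7. Their controls spanned 18.3 to 22.9 and 71.2 to 95.0 CPM. INSIG2, which holds back sterol synthesis, was at 17.4 and 19.4 CPM in coculture 1 and 2 and at 9.19 to 13.6 CPM in the other 8 libraries.

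STC2, a secreted glycoprotein that both hypoxia and the ATF4 stress response induce, went opposite ways in the library sets. It was at 63.6 and 56.6 CPM in coculture 1 and 2, 27.4, 25.1, 29.6 and 25.4 CPM in coculture 3 to 6, and 32.9, 36.3, 35.8 and 32.8 CPM in controls 1 to 4. The 3 sets do not overlap, with the controls in the middle. Over all libraries the log2 fold change was 0.14 ± 0.27 (SE; edgeR adjusted p = 0.906). Without coculture 1 and 2 it was -0.37 (edgeR adjusted p = 0.0444).

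**Figure D2:**
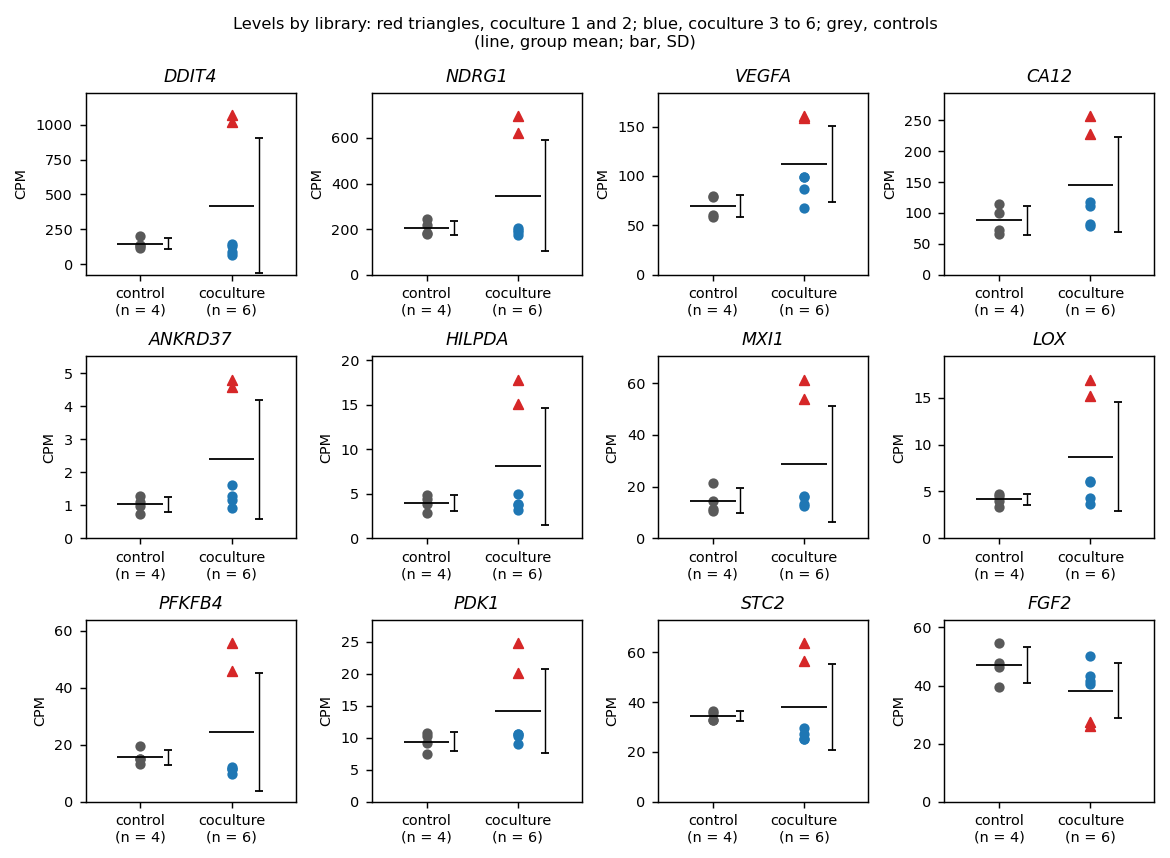
CPM (linear axes) of 12 genes in each library, with the group mean (line) and SD (bar). For 11 of the genes the red triangles of coculture 1 and 2 lie above all other points, for FGF2 (26 and 27.5 CPM) below them, and the blue points of coculture 3 to 6 lie among or near the grey controls.

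Among secreted factors of blood vessel growth, VEGFA, the main vascular growth factor, had the smallest p of all 45 genes. It was at 160 and 158 CPM in coculture 1 and 2, 67.5, 86.5, 98.9 and 99.3 CPM in coculture 3 to 6, and 79.5, 78.5, 58.3 and 61.0 CPM in controls 1 to 4. The highest 5 of the 10 libraries were cocultures, and coculture 3 lay among the controls. The group means were 112 ± 38.6 (SD, n = 6) and 69.3 ± 11.2 CPM (n = 4), a log2 fold change of 0.69 ± 0.23 (SE) with an unadjusted edgeR p of 0.0109 and an adjusted p of 0.282. Without coculture 1 and 2 the log2 fold change was 0.33 (adjusted p = 0.299).

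VEGFC, which directs lymphatic growth, did not follow VEGFA. It was at 18.4 and 21.3 CPM in coculture 1 and 2, 24.5, 26.4, 25.9 and 29.4 in coculture 3 to 6, and 20.6, 20.2, 22.9 and 23.4 in controls 1 to 4. Here coculture 3 to 6 lay above all controls, as 4.52% of all tested genes did, and the overall adjusted p was 0.737. ADM, the vasodilator peptide adrenomedullin, was at 20.4 and 32.6 CPM in coculture 1 and 2 and at 10.7 to 16.4 CPM in the other 8 libraries. ANGPTL4, a secreted inhibitor of lipoprotein lipase that also acts on vessels, was at 123 and 126 CPM in coculture 1 and 2, inside the range of 107 to 143 in coculture 3 to 6 and of 109 to 157 in the controls.

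FGF2, a fibroblast growth factor for endothelial cells, was the gene that was lower in coculture 1 and 2. Its levels were 26 and 27.5 CPM there, 50.1, 43.3, 40.6 and 41.7 in coculture 3 to 6, and 46.4, 39.5, 54.5 and 47.8 in controls 1 to 4. The overall log2 fold change was -0.30 ± 0.18 (SE; edgeR adjusted p = 0.632).

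Of 25 further ligands and receptors of vessel growth, 16 were tested, 1 was higher and 1 lower, against 1.14% and 0.186% of all genes. The higher was CXCL8, a chemokine for neutrophils and endothelial cells, at 185 to 660 CPM in coculture and 18.7 to 22.1 CPM in the controls (log2 fold change 3.89 ± 0.39; edgeR adjusted p = 0.000311). It was as high in coculture 3 to 6, at 195 to 660 CPM, as in coculture 1 and 2, at 232 and 185 CPM. Myeloid cells also make this chemokine. The summed myeloid markers were at 27.9 to 56.3 CPM in coculture and 2.16 to 2.62 CPM in the controls. The part of myeloid cells in the CXCL8 level was not tested. THBS1, thrombospondin 1, an inhibitor of vessel growth, fell from 283 ± 88.5 to 89.8 ± 44.1 CPM (log2 fold change -1.66 ± 0.35; edgeR adjusted p = 0.0368). It was at 73.4 and 32.5 CPM in coculture 1 and 2 and 66.5 to 150.2 in coculture 3 to 6, all below the controls at 167 to 371 CPM, as 1.17% of all tested genes were. The call was lost without coculture 1 and 2 (adjusted p = 0.11), with no filter (0.234), with the replicate block (0.0521) and on leaving out coculture 1, 4 or 6 or control 2, 3 or 4 (up to 0.151). The log2 fold change was -1.40 without coculture 1 and 2 and -1.87 to -1.48 on leaving out 1 library. TIE1, an endothelial receptor, was at 2.83 ± 0.982 against 1.45 ± 0.266 CPM (edgeR adjusted p = 0.13; DESeq2 0.017), with means of 3.97 in coculture 1 and 2 and 2.26 in coculture 3 to 6. EFNA1, a membrane ligand for Eph receptors, was at 18.1 ± 4.77 against 12.4 ± 1.16 CPM (edgeR adjusted p = 0.308), with means of 23.3 and 15.5 in those sets. KDR, the main receptor for VEGFA, had 1 count in coculture and 1 in the controls.

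In oxygen sensing and histone demethylation, ANKRD37, a compact HIF target of little known function, was at 4.59 and 4.80 CPM in coculture 1 and 2, 1.17, 1.28, 0.910 and 1.61 in coculture 3 to 6, and 0.983, 0.741, 1.09 and 1.29 in controls 1 to 4. Its ratio of coculture 1 and 2 to controls was 4.58, and the overall log2 fold change was 1.22 ± 0.50 (SE; edgeR adjusted p = 0.431). KDM3A, a histone H3 lysine 9 demethylase under HIF, was the 1 gene of the 45 with every coculture library above every control, as 2.45% of all tested genes were. It was at 34.6 and 37.6 CPM in coculture 1 and 2, 23.7, 25.6, 23.2 and 23.8 in coculture 3 to 6, and 22.3, 22.1, 19.7 and 19.0 in controls 1 to 4, with an overall log2 fold change of 0.44 ± 0.16 (SE; edgeR adjusted p = 0.325). EGLN1, the main oxygen-sensing prolyl hydroxylase, was at 69.6 to 86.4 CPM in coculture and 65.5 to 80.6 in the controls. EGLN3, an inducible member of that family, had 13 counts in all cocultures and 8 in all controls, a CPM ratio of 1.1 (95% exact counting interval 0.421 to 3.05), and was not tested.

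Over all libraries the factors upstream were not called. Of 15 genes of HIF subunits, VHL complex and cofactors, 13 were tested and 0 were higher or lower. HIF1A, the oxygen-labile subunit, was at 184 to 237 CPM in coculture and 151 to 236 CPM in the controls. In coculture 1 and 2 it was at 200 and 195 CPM, inside both ranges. EPAS1, which encodes HIF2 alpha, was at 71.7 to 124 and 67.3 to 113 CPM, and VHL at 75 to 112 and 82.9 to 107 CPM. The lowest adjusted p-values of that list were 0.525 for CITED2, a competitor of HIF for its coactivators, 0.546 for CUL2, the cullin of the VHL complex, 0.6 for HIF1AN, the asparagine hydroxylase, and 0.673 for CREBBP, a coactivator. CITED2 was at 69.7 to 91.8 CPM in coculture and at 53.6, 90.5, 54.2 and 58.5 CPM in controls 1 to 4, a log2 fold change of 0.31 that became 0.52 and was called without control 2 (edgeR adjusted p = 0.0342). In coculture 1 and 2, 2 of 13 lay above the other 8 libraries, against 22.4% of all genes, and 3 below, against 22.3%. The 2 above were ARNT and ELOB, with ratios to the controls of 1.28 and 1.35. The 3 below were ARNT2 (0.326), EP300 (0.698) and CREBBP (0.591). HIF itself is controlled mostly at the protein, which RNA-seq does not measure.

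Collagen-modifying genes were uneven. LOX, which cross-links collagen, was at 16.9 and 15.2 CPM in coculture 1 and 2, 3.62, 4.33, 6.12 and 5.97 in coculture 3 to 6, and 4.68, 4.52, 3.98 and 3.37 in controls 1 to 4, a log2 fold change of 1.07 ± 0.42 (SE; edgeR adjusted p = 0.411). P4HA1, a catalytic subunit of collagen prolyl hydroxylase, was at 64.6 and 76.8 CPM in coculture 1 and 2 and at 28.5 to 41.9 CPM in the other 8 libraries. P4HA2, its sister subunit, was at 62.7 and 70.6 CPM against 46.7 to 58.7. PLOD2, a collagen lysyl hydroxylase, behaved in the other way: it was at 198, 217, 203 and 217 CPM in coculture 3 to 6, at 175 and 193 CPM in coculture 1 and 2, and at 166 to 181 CPM in the controls (overall log2 fold change 0.19 ± 0.08; edgeR adjusted p = 0.447).

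**Figure D3:**
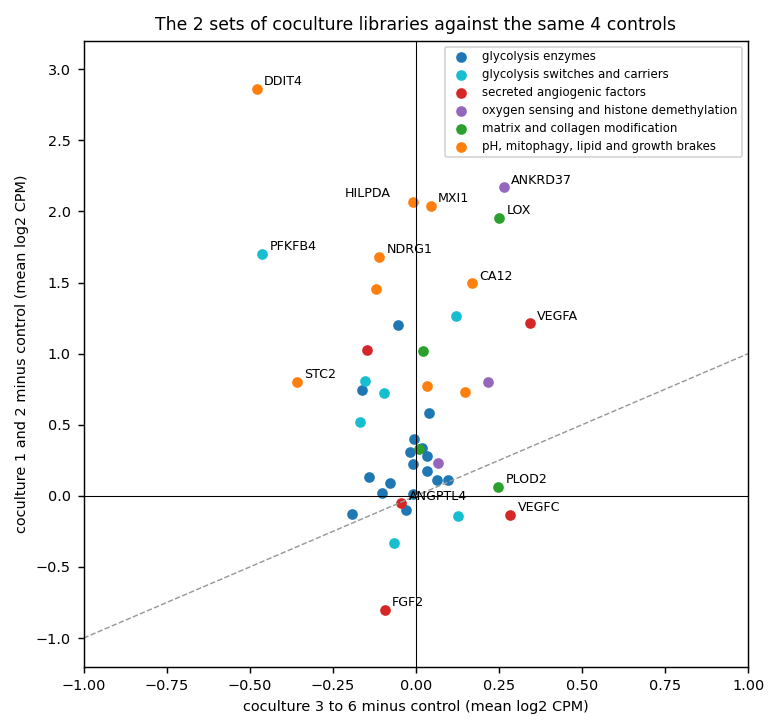
Difference in mean log2 CPM from the 4 controls for coculture 1 and 2 (vertical axis) and coculture 3 to 6 (horizontal axis), 1 point per tested gene, colored by role, with a dashed line where both differences are equal. Both axes share the controls, so the axes are not independent; the points spread from -0.80 (FGF2) to 2.86 (DDIT4) vertically and only from -0.48 (DDIT4) to 0.34 (VEGFA) horizontally.

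The glycolysis enzymes were abundant and varied little. Together 17 of them made up 2.20% to 2.68% of all counts in each library. On a per-length scale (CPM per kilobase of the transcript length in the deposited table), the control level was highest for GAPDH (4151), PKM (1699) and ENO1 (1662) and lowest for ALDOC (0.632), the brain aldolase. None of the 17 passed the threshold, and the median log2 fold change of the 17 was 0.08. The median difference from the controls was 0.17 log2 units in coculture 1 and 2 and -0.01 in coculture 3 to 6. In coculture 1 and 2, 8 of 17 lay above all other libraries (47.1%), against 22.4% of all genes.

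The size of that difference depended on the isozyme. ENO2, the enolase form first known from neurons, was at 124 and 158 CPM in coculture 1 and 2, 51.4, 59.2, 66.4 and 58.1 in coculture 3 to 6, and 69.9, 57.4, 58.0 and 58.5 in controls 1 to 4. ENO1, the general enolase, was at 4345 and 4796 CPM in coculture 1 and 2, 4299 to 4522 in coculture 3 to 6 and 3864 to 4523 in the controls. The ratio of coculture 1 and 2 to controls was 2.31 for ENO2 and 1.08 for ENO1.

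Phosphofructokinase, which commits sugar to glycolysis, has 3 subunit genes. PFKL was at 208 and 212 CPM in coculture 1 and 2 against 95.9 to 132 in the other 8 libraries, and PFKP at 549 and 534 CPM against 378 to 435. PFKM was at 158 and 152 CPM, inside the span of 146 to 161 CPM of the others. Among the hexokinases, which trap glucose, HK1 was at 477 and 507 CPM in coculture 1 and 2 and 406 to 466 elsewhere, and HK2 at 220 and 248 CPM, overlapping its controls at 178 to 245 CPM.

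In the later steps, PGK1, which makes the first ATP of the pathway, was at 783 and 888 CPM in coculture 1 and 2, 532, 574, 584 and 596 in coculture 3 to 6, and 547, 536, 559 and 581 in controls 1 to 4 (log2 fold change 0.25 ± 0.14; edgeR adjusted p = 0.605). LDHA, which turns pyruvate into lactate, was at 1746 and 1783 CPM in coculture 1 and 2, 1357 to 1449 in coculture 3 to 6 and 1203 to 1578 in the controls. ALDOA, the main aldolase, was at 1438 and 1602 CPM against 1096 to 1399 in the other 8, and TPI1, the triose isomerase, at 1016 and 1103 CPM against 748 to 985. GAPDH, often used as a constant reference, was at 6853 and 7585 CPM in coculture 1 and 2 and at 5565 to 6866 CPM elsewhere. PKM, the pyruvate kinase of most tissues, had ratios to the controls of 1.02 in coculture 1 and 2 and 0.933 in coculture 3 to 6. GPI, PGAM1, LDHB and ALDOC, which take part at other steps, overlapped between all sets, with edgeR adjusted p-values of 0.682 to 0.968.

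Of the 7 carriers and switches of glycolysis, 5 were above all other libraries in coculture 1 and 2, against 22.4% of all tested genes. None of the 7 was called for coculture against control, where 1.32% of all tested genes were. PFKFB4, which sets the level of the phosphofructokinase activator fructose 2,6-bisphosphate, was at 45.8 and 55.6 CPM in coculture 1 and 2, 12.2, 9.84, 11.5 and 11.5 in coculture 3 to 6, and 19.4, 13.1, 15.0 and 15.1 in controls 1 to 4. As for STC2, coculture 3 to 6 lay below the controls, as 3.92% of all tested genes did, and coculture 1 and 2 above them. Over all libraries the log2 fold change was 0.64 ± 0.50 (SE; edgeR adjusted p = 0.725), and without coculture 1 and 2 it was -0.49 (adjusted p = 0.0806). PFKFB3, the sister enzyme, was at 180 and 139 CPM in coculture 1 and 2, 172 to 215 in coculture 3 to 6 and 173 to 226 in the controls.

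PDK1, the kinase that shuts pyruvate out of the mitochondrial cycle, was at 20.1 and 24.7 CPM in coculture 1 and 2, 10.5, 10.3, 10.6 and 9.08 in coculture 3 to 6, and 10.2, 10.7, 9.17 and 7.41 in controls 1 to 4 (log2 fold change 0.60 ± 0.29; edgeR adjusted p = 0.539). SLC16A3, the lactate exporter of glycolytic cells, was at 610 and 611 CPM in coculture 1 and 2 and 314 to 391 CPM in the other 8. SLC16A1, the more general lactate carrier, was at 1.54 to 2.63 CPM over all libraries with no split. SLC2A1, the main glucose importer of tumor cells, was at 190 and 187 CPM in coculture 1 and 2, 121, 93.9, 135 and 123 in coculture 3 to 6, and 123, 154, 125 and 127 in controls 1 to 4. SLC2A3, a high-affinity glucose importer also abundant in neutrophils, was at 19.7 and 27.2 CPM in coculture 1 and 2, 11.3 to 12.9 in coculture 3 to 6 and 11.6 to 17.1 in the controls. The summed myeloid markers were at 49.3 and 27.9 CPM in coculture 1 and 2 and at 40.3 to 56.3 CPM in coculture 3 to 6. The part of myeloid cells in the SLC2A3 level was not tested.

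**Figure D4:**
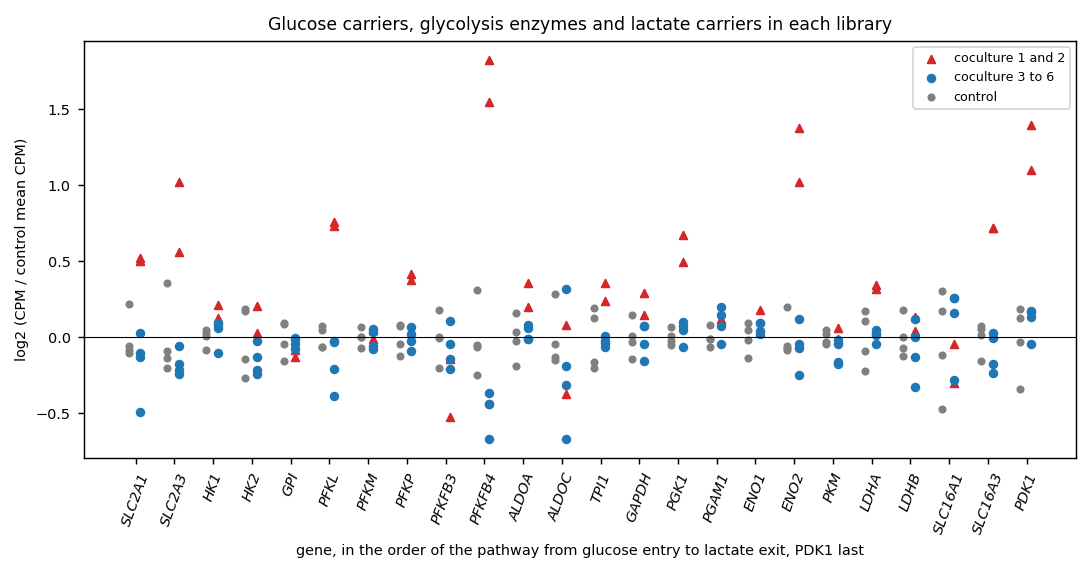
Log2 ratio of CPM to the control mean in each library, for carriers and enzymes in pathway order (controls grey, coculture 3 to 6 blue, coculture 1 and 2 red triangles). PFKFB4, ENO2, PDK1, PFKL and SLC16A3 carry the widest gaps between the triangles and the other points, while PFKM, GPI and PKM show none.

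Of 32 other isozymes and carriers of the pathway, 19 were tested, 2 were higher and 0 lower, against 1.14% and 0.186% of all genes. FBP1, which runs a step of glycolysis backwards and is abundant in monocytes and macrophages, had 713 counts in all cocultures and 2 in all controls, a ratio of 240.4 (95% exact counting interval 66.3 to 1989; edgeR adjusted p = 8.44e-05). HK3, the hexokinase of blood cells, was at 0.590 to 1.49 CPM in coculture and 0.0214 to 0.148 CPM in the controls (log2 fold change 3.80 ± 0.48; edgeR adjusted p = 0.00114). The replicate block ended the call of HK3 (adjusted p = 0.0634). Both genes were present in all 6 coculture libraries, as was LYZ, a myeloid marker, at 9.79 to 15.8 CPM against 0.0427 to 0.203 CPM in the controls. The part of myeloid cells in these 2 rises was not tested. TIGAR and PFKFB2, regulators of fructose 2,6-bisphosphate, were at 29.5 ± 4.76 against 37.4 ± 1.17 CPM and at 21.3 ± 3.17 against 26.5 ± 4.67 CPM (edgeR adjusted p of 0.32 and 0.489). Of 28 genes of pyruvate entry and the tricarboxylic acid cycle, 27 were tested and 0 were called, and coculture 1 and 2 stood above the other libraries for 4 and below for 7 of the 27, close to the shares over all genes. The lowest adjusted p was 0.442, for SDHA, a subunit of succinate dehydrogenase, at 250 ± 17.2 against 290 ± 33.4 CPM, followed by 0.599 for SUCLG2, 0.605 for MPC2 and 0.634 for MPC1.

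Of 30 further hypoxia-induced genes outside the 47, 28 were tested, 1 was higher and 0 lower, against 1.14% and 0.186% of all genes. The higher was MAFF, a small transcription factor also induced by inflammatory signals, at 67.7 ± 6.61 against 36.8 ± 4.41 CPM (log2 fold change 0.88 ± 0.11; edgeR adjusted p = 0.000887). It rose in all 6 coculture libraries (59.9 to 76.9 CPM against 33.0 to 42.6), with coculture 1 and 2 at 63.1 and 72.6. Coculture 1 and 2 lay above the other 8 libraries for 18 of the 28, against 22.4% of all genes, and below for 2, against 22.3%. The 2 were GBE1, the glycogen branching enzyme, and TFRC, the transferrin receptor, both named after their values were seen. WSB1, a ubiquitin ligase adaptor, was at 56.2 ± 6.66 against 40.6 ± 7.58 CPM (edgeR adjusted p = 0.153; DESeq2 0.0396), and ERO1A, an oxidase of the endoplasmic reticulum, at 107 ± 4.15 against 92.3 ± 5.42 CPM (0.295).

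Several of the 47, among them DDIT4, STC2 and VEGFA, are also known targets of ATF4, the factor of the amino acid and endoplasmic reticulum stress response. Of 15 genes of that response all were tested and 0 were called over the 6 coculture libraries. Their lowest adjusted p-values were 0.0984 for ATF3, a stress transcription factor at 3.79 ± 0.814 against 2.12 ± 0.468 CPM, and 0.186 for ATF4 at 707 ± 20.1 against 582 ± 70.2 CPM. DESeq2 called ATF3 (adjusted p = 0.00581). Coculture 1 and 2 lay above the other 8 libraries for 9 of the 15 and below for 1, against 22.4% and 22.3% of all genes. Without coculture 1 and 2, 5 of the 15 were lower, against 0.732% of all genes in that fit: ASNS, asparagine synthetase, with a log2 fold change of -0.72 (edgeR adjusted p = 0.0214), PSAT1 and PHGDH, enzymes of serine synthesis, at -0.48 (0.0228) and -0.36 (0.0165), CHAC1, which degrades glutathione, at -0.48 (0.0492), and SLC7A5, an amino acid carrier, at -0.40 (0.0411). In the same fit STC2 was called lower, at -0.37 (edgeR adjusted p = 0.0444), and PFKFB4, at -0.49, was not called (0.0806). A part of ATF4 in these levels was not tested.

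The miRNA-seq data gave a readout outside these rows. miR-210 is the miRNA best known as induced by HIF, and its 2 arms come from 1 hairpin on chromosome 11, whose host transcript is MIR210HG. The mature sequences, from RefSeq (build GRCh38.p14) and identical to those in the deposited table, are shown with the seed (bases 2 to 8) in capitals, since the arms have different seeds.
hsa-miR-210-3p, chr11:568112-568133, minus strand: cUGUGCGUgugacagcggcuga
hsa-miR-210-5p, chr11:568150-568171, minus strand: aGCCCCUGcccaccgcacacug

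miR-210-3p, the dominant arm, was at 509 and 696 CPM in coculture 1 and 2, 159, 146, 153 and 199 CPM in coculture 3 to 6, and 217, 160, 337 and 239 CPM in controls 1 to 4. miR-210-5p was at 9.57 and 17.4 CPM in coculture 1 and 2, 1.28 to 2.86 in coculture 3 to 6 and 1.77 to 3.78 in the controls. Both arms were thus highest in coculture 1 and 2, as for 5.14% of the 797 tested miRNAs (9.28% were lowest there). By the log2 difference of coculture 1 and 2 from coculture 3 to 6, they ranked 1 (5p) and 2 (3p) among the 797. miR-210-5p had 49 and 89 counts in coculture 1 and 2 and 7 to 19 in each other library. Without coculture 1 and 2 it fell under the filter, so its place among the tested miRNAs, and its rank, rest on those libraries. The 2 arms share 1 hairpin and are not independent. Over all 6 coculture libraries the log2 fold change was 0.38 ± 0.51 for miR-210-3p and 1.28 ± 0.74 for miR-210-5p (edgeR adjusted p of 0.786 and 0.546), where 1.25% of the miRNAs were called. Without coculture 2 these became -0.022 and 0.55. Without coculture 1 and 2, miR-210-3p was at -0.53 ± 0.21 (adjusted p = 0.461).

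In RNA-seq, MIR210HG was at 6.88 and 9.37 CPM in coculture 1 and 2, 0.215, 0.261, 0.455 and 0.337 in coculture 3 to 6, and 0.790, 0.494, 0.170 and 0.203 in controls 1 to 4 (log2 fold change 2.80 ± 1.18; edgeR adjusted p = 0.454). The deposited location of MIR210HG is chr11:95312-568457 (minus strand). That wide span holds the hairpin, and its reads may come from more than the host transcript. The 2 assays carry the same library numbers in the labels, though it is not stated that a number marks 1 culture. The numbers 1 and 2 of the coculture group were the high ones in both.

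**Figure D5:**
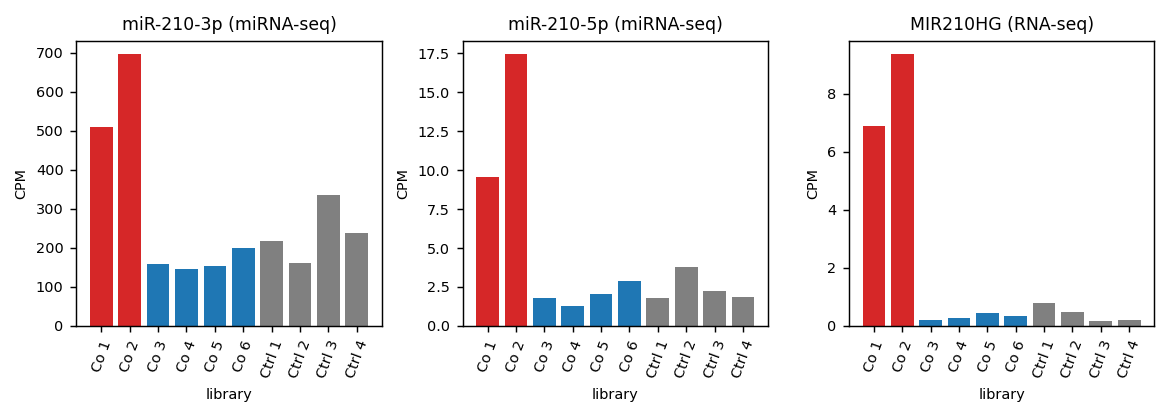
CPM (linear axes from 0) of miR-210-3p and miR-210-5p by miRNA-seq library and of MIR210HG by RNA-seq library. In all 3 panels the bars of coculture 1 and 2 (red) stand above the bars of coculture 3 to 6 (blue) and of the controls (grey).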

How the data were processed

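RNA-seq and miRNA-seq of TPC-1 cells were analysed, 6 coculture and 4 control libraries each. The authors deposited raw read counts per gene symbol and per mature miRNA. HISAT2 2.0.4, BWA and GRCh38.p10 are named, per the submitters' processing notes, without roles; counting tool, annotation and strand setting are not stated, so reads of overlapping or antisense genes, such as MIR210HG and its neighbours, and of close paralogs (the PGAM, ENO, LDHA and SLC2A3 families) cannot be told apart with certainty. The number of unused sample columns was 0. Tests ran in edgeR 4.0.16 under R 4.3.3 (TMM, filterByExpr, robust glmQLFit, glmQLFTest), one fit per assay, Benjamini-Hochberg over all features, threshold 0.05; SE is the log2 fold change divided by the square root of F. Alternatives used limma 3.58.1 and DESeq2 1.42.0. Log2 CPM used a prior count of 2. In RNA-seq, 3 counts correspond to 0.0632 to 0.0758 CPM, and miRNA-seq totals were 3971608 to 5895539. Intervals cover counting error only. No library pair of a group agreed within sampling noise (smallest chi-square per degree of freedom 7.22). Scripts were tested on simulated counts. All 47 members are accounted for; library values are given for the 12 largest fold changes and for a fixed list, and for each context list its called genes and up to 4 by adjusted p, except genes that are not reported here. Members and lists were chosen with earlier results of these data known.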

Additional observations from a re-analysis of the deposited data

Results flagged for a closer look

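In 94 sets of libraries (45 genes and 2 miRNAs in 2 groups), 2 held 1 library farther from its neighbours than Dixon's 95% limit allows. The sets share the same libraries, so this number cannot be set against a rate by chance. ENO2 in control 1 was at 69.9 CPM, where the other controls were at 57.4 to 58.5. SLC2A1 in control 2 was at 154 CPM, where the other controls were at 123 to 127. Coculture 1 and 2 lay close together in most genes, so neither counts as 1 far library by that limit.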

How the results depend on the processing

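No alternative raised the number of members called higher above 0, and the number lower was 0 under all but 1, the fit without coculture 1 and 2, where it was 1. Of 720 member values under the 16 alternatives, 684 kept their direction and stayed uncalled and 36 reversed. Without coculture 1 and 2, log2 fold changes below 0 in place of above 0 were ADM -0.18, NDRG1 -0.13, BNIP3L -0.14, P4HA2 -0.0080, DDIT4 -0.47, STC2 -0.37, PFKFB4 -0.49, HILPDA -0.032, MXI1 -0.015, PFKL -0.17, PFKP -0.019, TPI1 -0.042, GAPDH -0.023, ENO2 -0.067, LDHA -0.0015, SLC2A1 -0.17, SLC2A3 -0.18, SLC16A3 -0.11, MIR210HG -0.41 and miR-210-3p -0.53; that alternative was added later for miRNA-seq, where miR-210-5p fell under the filter. Leaving out 1 library gave ranges that cross 0 for ANGPTL4 (-0.14 to 0.039), STC2 (-0.068 to 0.24), HK2 (-0.14 to 0.0084), PFKM (-0.027 to 0.023), LDHB (-0.061 to 0.045), SLC2A1 (-0.0019 to 0.19), SLC16A1 (-0.10 to 0.14), VHL (-0.022 to 0.10) and miR-210-3p (-0.022 to 0.61). The sign turned without coculture 2 for miR-210-3p, without coculture 1 or 2 for STC2 and without coculture 1 for SLC2A1. The replicate block reversed LDHB (0.078) and VHL (-0.047) and called 0 members; it ended the calls of 4 of the 11 myeloid markers (TYROBP, CD52, CSF1R and FCER1G). Same-numbered libraries deviated together with correlations of 0.35, -0.083, 0.20 and 0.14, and controls 2 and 4 did not correlate best with their own number, so the numbers were not taken as pairs. Over all genes, 178 higher and 29 lower calls became 333 and 106 with DESeq2, 100 and 10 under the replicate block, 210 and 112 on dropping coculture 1 and 2, and 112 to 204 and 4 to 36 on leaving out 1 library. The cause was not tested. Depth limits CA9, EGLN3 and miR-210-5p.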

Other observations

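The controls differed among themselves in these genes too. Control 1 held the highest of the 4 control levels for 17 of the 45 tested genes and control 4 for 17, while control 2 did for 4 and control 3 for 7. Of the 29 genes highest in coculture 1 and 2, control 1 led the controls for 13, DDIT4, NDRG1, MXI1, PFKFB4 and SLC2A3 among them, and control 4 for 10. MXI1 was at 21.2 CPM in control 1 and at 10.6 CPM in control 4, and DDIT4 at 205 CPM in control 1 and 114 to 141 CPM in the other controls.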
